A study of Homo sapiens with 6 samples.

Results

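Condensin and its relatives are ring-shaped complexes built on paired SMC (structural maintenance of chromosomes) proteins, ATPases that fold and tether DNA. Condensin I and condensin II both contain the SMC2 and SMC4 proteins, and each adds its own kleisin, which closes the ring (NCAPH or NCAPH2), and its own pair of HEAT-repeat subunits (NCAPD2 and NCAPG, or NCAPD3 and NCAPG2). Condensin II is nuclear through interphase and condensin I reaches the chromosomes after nuclear envelope breakdown. Cohesin, built on SMC1A and SMC3, holds sister chromatids together, and DNA topoisomerase II alpha (TOP2A) unlinks intertwined chromatids.

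The 10 genes described here are the 6 condensin-specific subunits, SMC2, SMC4, TOP2A and SMC1A, taken by gene symbol from 54259 symbols in the count table. All 10 were among the 15277 genes that passed the filter on low counts. The gene names were proposed after the contrast of shBry with shNC had been seen in these same libraries, so their fold changes are given as a description and without a test. Total RNA was sequenced from MDA-MB-231 cells in 2 groups of 3 libraries, named shBry and shNC by their hairpins. MDA-MB-231 is an established human triple-negative breast cancer line, shBry is a short hairpin RNA (shRNA) against the T-box transcription factor brachyury and shNC is the control hairpin. The sources used here do not say whether the shRNA cells were clones or pools, or whether libraries of a group came from separate cultures, so p-values measure only the spread between these libraries, which may be technical.

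Library totals lay between 19319411 and 22985371 counts, and values are given as CPM, a gene's counts scaled to a common library size after TMM normalization. Brachyury, listed as T, had 0 counts in all 6 libraries, which allows up to 0.126 to 0.162 CPM (3 counts, counting error only), so the knockdown itself could not be seen in these counts. The line's markers VIM, CD44 and AXL summed to 4836 to 5074 CPM in shBry and 5154 to 5407 CPM in shNC, while ESR1, PGR and CDH1 had at most 2 counts in a library. The deposited design text calls the RNA pericardial. Of 3 heart muscle markers, MYH6 and MYL7 were at 0 and TNNT2 had at most 2 counts, and of 3 leukocyte markers, PTPRC and TYROBP were at 0 and CD3E had at most 1 count. The 3 markers of mesothelium and pericardium all had counts and summed to 50.7 to 56.4 CPM in shBry and 30.7 to 39.5 CPM in shNC, with most of the sum in MSLN. Of 3 lung epithelium markers, SFTPB and SFTPC were at 0, and NKX2-1 lay between 14.9 and 18.8 CPM in shBry and between 32.3 and 38.4 CPM in shNC. The part of these marker differences in the results that follow was not tested.

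Promoter sequences in RefSeq (GRCh38.p14, from 250 bases before to 50 bases after an annotated start) were held for 9 of the 10 genes, in 13 windows, and NCAPH2 had no entry. The cell cycle genes homology region (CHR), a short element of many promoters active late in the cell cycle, was searched on both strands as TTTGAA or TTCGAA. It was present in 7 of the 13 windows (53.8%), from 7 genes, against 16.4% of 35116 promoters of the same length. The stretches around the matches are shown because this element was found in SMC2 and SMC4 promoters as well as in those of condensin-specific subunits. They run 5′ to 3′ on the gene's strand, with the CHR letters in capitals, and reversed matches read TTCAAA:
NCAPD2 (condensin I, chr12:6493945-6493974, plus strand): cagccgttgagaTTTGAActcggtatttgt
NCAPG (condensin I, chr4:17810932-17810961, plus strand): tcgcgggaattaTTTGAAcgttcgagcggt
NCAPD3 (condensin II, chr11:134223953-134223982, minus strand): gcgggagcgagcTTTGAAagttgagcacgg
NCAPG2 (condensin II, chr7:158704755-158704781, minus strand): ccggcgggtgcgTTTGAAtctggtccg
SMC2 (both condensins, chr9:104094294-104094323, plus strand): ctcgcgccgaaaTTCAAAggaataaatagt
SMC4 (both condensins, chr3:160399563-160399592, plus strand): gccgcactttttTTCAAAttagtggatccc

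Positions count from 0 at the annotated start of the window that held the match. These matches begin at -145 in NCAPD2, -35 in NCAPG, -3 in NCAPD3, 35 in NCAPG2, -3 in SMC2 and -75 in SMC4. NCAPD3, SMC2 and SMC4 each had another window, at a different annotated start, without a CHR match. Annotated untranslated regions (UTRs) of any gene covered all 250 upstream bases of the matched windows of NCAPD2, NCAPD3 and SMC4. They covered 107 of these bases in NCAPG, 49 in SMC2 and 25 in NCAPG2, so not every match lies in untranscribed sequence. The 7th gene was TOP2A, whose window held 2 CHR matches and 4 CCAAT boxes, the site bound by the factor NF-Y, and had UTRs over 54 upstream bases. The first 190 bases of that window (chr17:40417957-40418146, minus strand) are shown with both motifs in capitals, CCAAT reading ATTGG when reversed:
TOP2A: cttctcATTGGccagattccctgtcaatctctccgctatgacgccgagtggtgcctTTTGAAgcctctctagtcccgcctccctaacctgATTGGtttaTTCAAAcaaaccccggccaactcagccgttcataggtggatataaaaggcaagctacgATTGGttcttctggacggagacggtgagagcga

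No CHR letters occurred in the windows of NCAPH and SMC1A. The 250 bases before the NCAPH start (chr2:96335516-96335765, plus strand) held 1 CCAAT box, at -112, shown in capitals. They are printed because NCAPH is the only condensin-specific subunit with a promoter entry but no CHR match:
NCAPH: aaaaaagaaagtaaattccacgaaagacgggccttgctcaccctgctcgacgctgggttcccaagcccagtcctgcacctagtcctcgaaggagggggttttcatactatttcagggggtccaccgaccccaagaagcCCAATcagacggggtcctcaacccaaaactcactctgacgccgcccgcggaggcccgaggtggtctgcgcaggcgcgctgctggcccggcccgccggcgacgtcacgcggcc

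CCAAT was present in 4 of the 13 windows, those of NCAPD2, NCAPD3, NCAPH and TOP2A, against 34.6% of all promoters. An E2F-like motif, TTNNCGC, was present in 6 windows from 5 genes, against 25.3% of all promoters. The T-box core TCACACC, part of the sequence that brachyury binds, was present in 1 window, that of SMC2 at -210, against 3.45% of all promoters. Each motif was searched on both strands and counted separately, so that matches could share bases. A match is only a run of letters, and several genes have more than 1 annotated start. The part of these motifs in the fold changes that follow was not tested.

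The condensin-specific subunits were lower in shBry than in shNC, while their shared SMC subunits were at about the same level in both groups. The log2 fold changes of shBry relative to shNC ran from -2.21 to -0.74 over the 3 condensin I subunits (median -1.71) and from -1.31 to -0.83 over the 3 condensin II subunits (median -1.26). SMC2 and SMC4 were at -0.15 and -0.06, against a median of 0.03 over all genes tested. In RNA from whole cultures, fewer cells of a type and less RNA per cell cannot be told apart.

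A gene was called at a Benjamini-Hochberg adjusted p below 0.05 in edgeR's quasi-likelihood test over all genes and a fold change above 1.5. By this rule 8 of the 10 genes were called, all lower in shBry, beside 32.4% of all genes tested (15.2% called lower and 17.1% called higher). In the same 8 genes the shBry libraries did not overlap the shNC libraries, as was the case for 59.5% of all genes tested. The names were chosen with this contrast in view, so nothing is read from these counts.

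**Figure D1:**
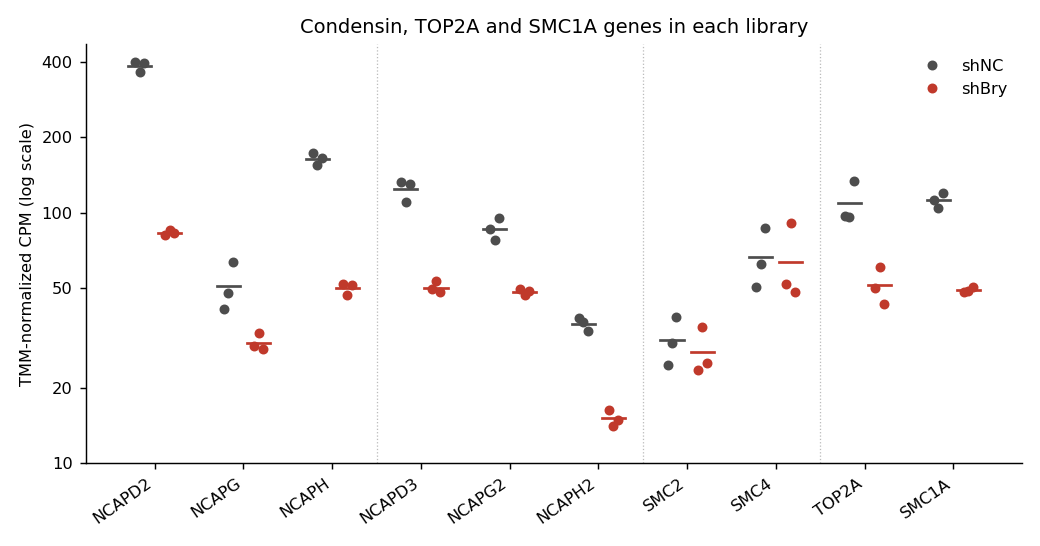
TMM-normalized CPM (log axis) of the 10 genes in each library, with points for the 3 shNC and 3 shBry libraries and lines for group means; dotted lines separate condensin I, condensin II, the shared SMC subunits, and TOP2A with SMC1A. The groups are apart for 8 genes and interleave for SMC2 and SMC4, whose means are 27.9 against 31.1 CPM and 63.8 against 66.7 CPM in shBry and shNC.

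NCAPD2 (chr12:6493356-6531955, plus strand), the HEAT-repeat subunit that helps condensin I bind DNA, had 81.9, 85.3 and 83.1 CPM in the shBry libraries and 399, 364 and 396 CPM in the shNC libraries, in replicate order. Every shBry value lay far below every shNC value, and the spread within a group was small beside the gap. The group means were 83.4 ± 1.71 and 387 ± 19.3 CPM (SD, n = 3 each), with a log2 fold change of -2.21 (SE 0.08), which put NCAPD2 at 21.6% of its shNC level. Only 86 of the 15277 genes tested had a lower fold change. MRPL51 exons on the opposite strand cover 7.49% of the NCAPD2 exon bases, and MRPL51 had means of 91.8 CPM in shBry and 94.6 CPM in shNC.

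NCAPH (chr2:96335787-96373845, plus strand), the kleisin of condensin I, had 52.2, 46.8 and 51.4 CPM in shBry and 173, 155 and 165 CPM in shNC. The 3 shBry libraries again lay together, well under the 3 shNC libraries. The means were 50.1 ± 2.88 and 164 ± 8.82 CPM, and the log2 fold change was -1.71 (SE 0.09), or 30.5% of the shNC level, with 232 genes lower still.

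NCAPG (chr4:17810902-17844862, plus strand), the second HEAT-repeat subunit of condensin I, had 29.4, 33.0 and 28.5 CPM in shBry and 41.1, 47.7 and 63.7 CPM in shNC. The groups did not overlap, but shNC replicate 3 stood above the other shNC libraries. The log2 fold change was -0.74 (SE 0.14), and without shNC replicate 3 it was -0.57, which no longer passed the call rule. Exons of LCORL on the opposite strand cover 33.1% of the NCAPG exon bases, and the strand setting of the counting is not given in the sources used here. LCORL itself had means of 5.19 CPM in shBry and 5.78 CPM in shNC.

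The condensin II subunits differed less among themselves. NCAPD3 (chr11:134150119-134225454, minus strand), its larger HEAT-repeat subunit, had 49.5, 53.2 and 48.1 CPM in shBry and 133, 111 and 130 CPM in shNC. All 3 shNC values were more than double any shBry value, and the log2 fold change was -1.31 (SE 0.09), or 40.4% of the shNC level. Exons of genes on the opposite strand, among them VPS26B, cover 8.89% of its exon bases, and VPS26B had means of 39.9 CPM in shBry and 86.5 CPM in shNC.

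NCAPH2 (chr22:50508216-50523472, plus strand), the kleisin of condensin II, had 16.3, 14.1 and 14.9 CPM in shBry and 38.1, 36.7 and 33.7 CPM in shNC. The libraries within each group were close together, and the log2 fold change was -1.26 (SE 0.11), or 41.7% of the shNC level. NCAPG2 (chr7:158631311-158704829, minus strand), the counterpart of NCAPG, had 49.6, 46.9 and 48.9 CPM in shBry and 85.8, 78.0 and 95.3 CPM in shNC. It was the least changed of the condensin II subunits, with a log2 fold change of -0.83 (SE 0.09), or 56.1% of the shNC level. In each complex the NCAPG-type subunit was thus the one with the smallest fold change.

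SMC2 (chr9:104094260-104141417, plus strand), an ATPase core of both condensins, had 23.5, 35.1 and 25.05 CPM in shBry and 24.6, 30.3 and 38.3 CPM in shNC. The groups overlapped, since shBry replicate 2 lay above 2 of the shNC libraries. The means were 27.9 ± 6.29 and 31.1 ± 6.86 CPM, and the log2 fold change of -0.15 was smaller than its SE of 0.17.

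SMC4 (chr3:160399274-160434962, plus strand), its ATPase partner, had 51.7, 91.1 and 48.5 CPM in shBry and 50.4, 62.7 and 86.9 CPM in shNC. Here the highest value of all 6 libraries was that of shBry replicate 2. The means were 63.8 ± 23.7 and 66.7 ± 18.6 CPM, and the log2 fold change was -0.06 (SE 0.22). Leaving out 1 library moved it from -0.42, without shBry replicate 2, to 0.16, without shNC replicate 3, and moved SMC2 from -0.37 to 0.00041 by the same omissions. Exons of TRIM59 and IFT80 on the opposite strand cover 25.6% of the SMC4 exon bases; TRIM59 had means of 8.28 and 8.22 CPM and IFT80 had means of 5.62 and 8.88 CPM in shBry and shNC.

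TOP2A (chr17:40388516-40417950, minus strand) had 50.2, 60.8 and 43.2 CPM in shBry and 97.5, 96.5 and 134 CPM in shNC. The groups did not overlap, and shBry replicate 2 and shNC replicate 3 were again the highest of their groups. The log2 fold change was -1.09 (SE 0.14), or 47.0% of the shNC level. SMC1A (chrX:53374149-53422728, minus strand), the cohesin ATPase, had 48.3, 48.7 and 50.7 CPM in shBry and 112, 104 and 120 CPM in shNC. Its libraries were close together in both groups, with a log2 fold change of -1.19 (SE 0.09), or 43.9% of the shNC level.

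The libraries in which SMC2, SMC4, NCAPG and TOP2A stood high were those in which genes of low GC content stood high. In the 3397 genes with the lowest GC content (up to 42.5% GC), the median deviation of log2 CPM from the group mean was -0.13, 0.15 and -0.01 in shBry and -0.13, -0.04 and 0.18 in shNC. SMC4 deviated by -0.24, 0.57 and -0.33 in shBry and by -0.37, -0.05 and 0.42 in shNC. The GC content, taken from the longest coding transcript, was 37.3% in SMC4, 37.6% in SMC2, 39.0% in NCAPG and 39.1% in TOP2A. It was 47.6% in NCAPH, 52.5% in NCAPD2 and 62.2% in NCAPH2. NCAPG2, at 41.4% and so also under the limit of 42.5%, went only partly with the low-GC genes. Within its groups NCAPG2 was highest in shNC replicate 3 (0.15) but lowest in shBry replicate 2 (-0.05).

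**Figure D2:**
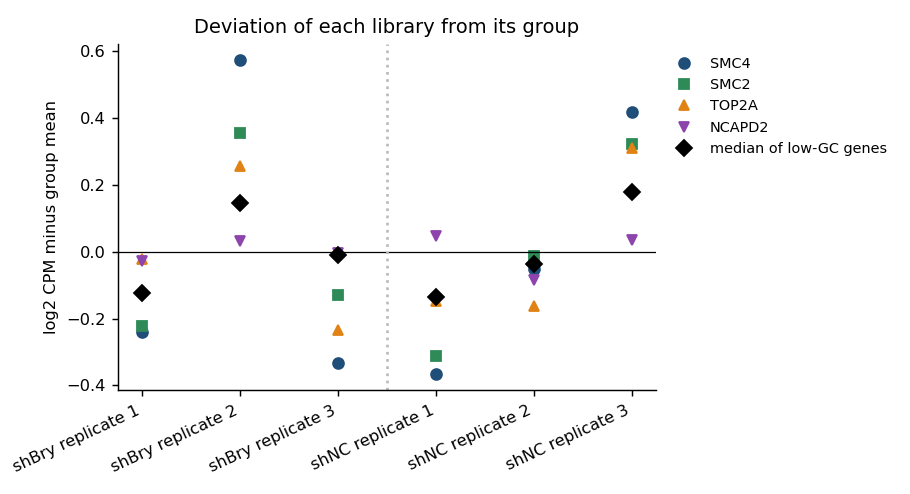
Deviation of log2 CPM from the mean of the library's own group, for SMC4, SMC2, TOP2A, NCAPD2 and the median of the 3397 genes lowest in GC content, in each of the 6 libraries. Both shBry replicate 2 and shNC replicate 3 lie high for SMC4 (0.57 and 0.42) and for the low-GC genes (0.15 and 0.18), while NCAPD2 stays between -0.08 and 0.05 of its group mean.

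With both of these libraries left out, the log2 fold changes were -0.21 for SMC2, -0.21 for SMC4, -0.65 for NCAPG and -1.09 for TOP2A, and 8 of the 10 genes were called. Fold changes between the groups also varied with GC content, with a median log2 fold change of 0.19 in the low-GC genes. It was -0.11 in the genes of highest GC content. After removal of the trend of the fold changes with GC content and length, the values were -0.33 for SMC2, -0.24 for SMC4 and -0.89 for NCAPG. They were -1.24 for TOP2A, -2.15 for NCAPD2 and -1.15 for NCAPH2. Both of these checks were chosen after seeing the data. In each of them SMC2 and SMC4 stayed nearer to 0 than any of the condensin-specific subunits.

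Levels of different genes were compared as CPM per kilobase (kb) of all annotated exon bases. In shNC, NCAPD2 (59.6 ± 2.97 CPM per kb) and NCAPH (50.2 ± 2.69) stood above the rest, which ran from TOP2A (17.0 ± 3.32) through NCAPD3 (13.7 ± 1.33), NCAPG2 (12.4 ± 1.23), NCAPH2 (11.4 ± 0.715), SMC1A (10.7 ± 0.773), NCAPG (10.3 ± 2.35) and SMC4 (7.89 ± 2.20) to SMC2 (4.81 ± 1.06). From TOP2A down, the mean ± SD ranges of neighbours in this order overlapped. Within single libraries, however, TOP2A was above NCAPD3, NCAPD3 above NCAPG2, NCAPG above SMC4 and SMC4 above SMC2 in all 3 shNC libraries, while the order of NCAPG2, NCAPH2, SMC1A and NCAPG changed between libraries. With the longest coding transcript as the length, NCAPD3 (24.6 ± 2.39 CPM per kb) had a higher mean than TOP2A (18.99 ± 3.71). By that length SMC4 was above NCAPG in all 3 shNC libraries (9.21, 11.5 and 15.9 against 8.83, 10.2 and 13.7 CPM per kb). NCAPH2 (17.4 ± 1.09) also had a higher mean than NCAPG2 (16.4 ± 1.64), so the order depended on the length used. In shBry, by all exon bases, NCAPH (15.3 ± 0.880 CPM per kb) stood above NCAPD2 (12.9 ± 0.264). The rest lay between 4.31 ± 0.972 (SMC2) and 7.98 ± 1.37 (TOP2A). The distance from the highest to the lowest of the 10 genes was thus much smaller in shBry.

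The mean level of the 3 condensin I subunits was 11.4 ± 0.063 CPM per kb in shBry and 40.0 ± 1.99 in shNC. That of the 3 condensin II subunits was 5.74 ± 0.134 in shBry and 12.5 ± 0.736 in shNC. The mean of SMC2 and SMC4 was 5.92 ± 1.88 and 6.35 ± 1.63 CPM per kb. Transcript levels of the specific subunits, taken over those of the shared ATPases, were therefore lower in shBry, where the mean of the 6 specific subunits was 1.54 ± 0.421 times that of SMC2 and SMC4, against 4.31 ± 1.10 times in shNC.

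**Figure D3:**
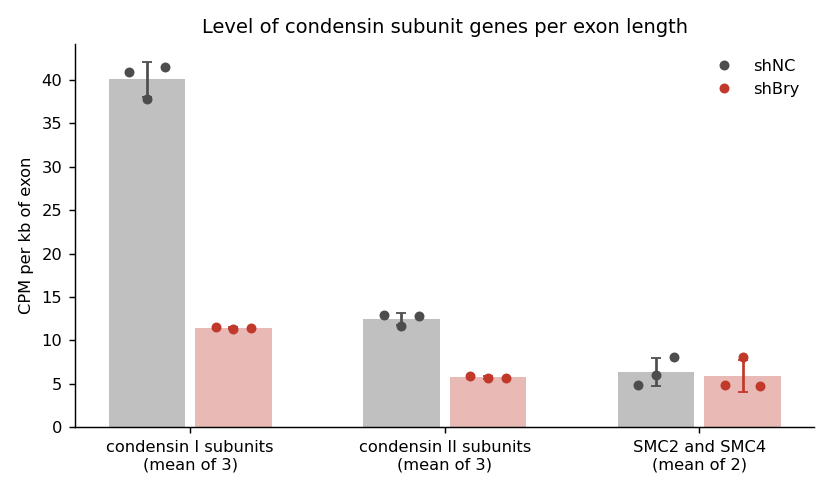
Mean level of the condensin I subunits, the condensin II subunits, and SMC2 with SMC4, in CPM per kb of exon. Bars are means of 3 libraries, error bars are SD and points are libraries; the condensin I mean is 11.4 in shBry and 40.0 in shNC, while the SMC2 and SMC4 means are 5.92 and 6.35.

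The balance of the subunit transcripts, taken within each library, also differed between the groups. Condensin II subunits made up 33.9, 33.3 and 33.1% of the summed level of the 6 specific subunits in the shBry libraries and 24.1, 23.6 and 23.7% in the shNC libraries. Every shBry share was above every shNC share, with means of 33.4 ± 0.408% and 23.8 ± 0.264%. With the longest coding transcript as the length, the shares were 40.7% in shBry and 29.997% in shNC, so the size of the share depends on the length used while the direction does not.

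By type of subunit, the ratio NCAPD2 over NCAPD3 was 2.33 ± 0.0880 in shBry and 4.38 ± 0.220 in shNC. For the kleisins, NCAPH over NCAPH2 was 3.20 ± 0.121 in shBry and 4.39 ± 0.319 in shNC. For the last pair, NCAPG over NCAPG2 was 0.890 ± 0.0950 in shBry and 0.832 ± 0.137 in shNC, a difference within the spread of the libraries. SMC4 over SMC2 was 1.72 ± 0.254 in shBry and 1.63 ± 0.0947 in shNC, also within the spread.

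The other complexes of the SMC family and their partners were described from 5 lists of genes. These genes were not picked for how they moved, but were listed with earlier results of these libraries known. The core subunits of cohesin other than SMC1A were not called. Of 8 genes listed, STAG3 and SMC1B were too low to be tested. None of the 6 tested was called by edgeR, by DESeq2 or by limma-voom, while edgeR called 32.4% of all genes tested. REC8 and RAD21L1, among the 6, were low, with means of 2.19 and 1.56 CPM in shBry and 2.03 and 1.13 CPM in shNC. In edgeR, 1 of the 6 had an unadjusted p below 0.05. That gene was RAD21, the kleisin, with 154, 202 and 174 CPM in shBry and 211, 230 and 297 CPM in shNC. Its groups did not overlap, and its log2 fold change of -0.48 (SE 0.12, edgeR adjusted p = 0.00488) was under the fold change limit. Without shBry replicate 2 it was -0.60 and passed the call rule. Exons of other genes, most of them on the opposite strand, cover 14.2% of its exon bases.

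SMC3, the ATPase partner of SMC1A, had 39.8, 56.1 and 40.2 CPM in shBry and 36.5, 40.8 and 52.5 CPM in shNC. The groups overlapped, and the log2 fold change was 0.07 (SE 0.15, edgeR adjusted p = 0.714). For STAG1 and STAG2, alternative cohesin subunits, it was 0.27 (SE 0.14, edgeR adjusted p = 0.128) and -0.00 (SE 0.16, edgeR adjusted p = 0.993). PCCB exons on the opposite strand cover 21.2% of the STAG1 exon bases. Of the SMC3 stretches of 50 bases, 7.93% also occur in another gene's transcripts. SMC1A at -1.19 thus lay apart from its ATPase partner in value, and the difference between these genes was not tested. With the trend of the fold changes with GC content and length removed, SMC1A was at -1.15 and SMC3 at -0.07. By that check STAG1 was at 0.13, STAG2 at -0.19 and RAD21 at -0.58.

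**Figure D4:**
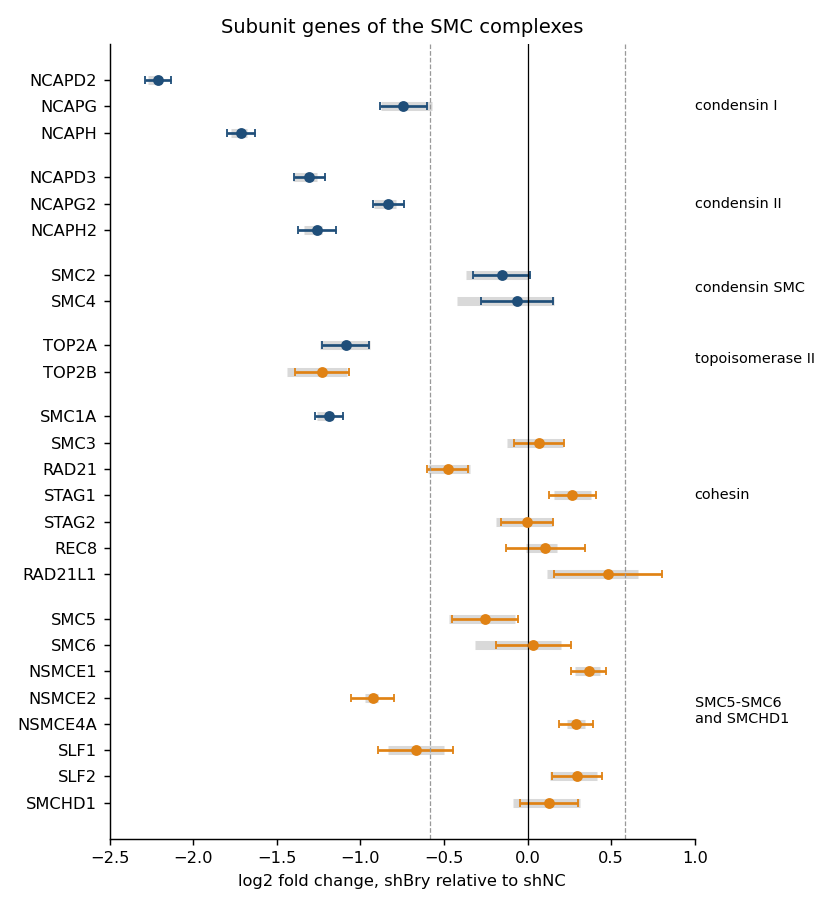
Log2 fold change of shBry relative to shNC for the 10 genes (blue) and for TOP2B and the tested genes of the cohesin core and of the SMC5-SMC6 and SMCHD1 list (orange). Error bars are SE, grey bars run from the lowest to the highest value with 1 library left out, and dashed lines mark the fold change limit of 1.5; SMC1A is at -1.19 and SMC3 at 0.07.

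Of 16 genes that load, release, acetylate or cleave cohesin, or act with it, 5 fell and 1 rose in shBry, with a median log2 fold change of -0.39. The share called was 37.5%, near the 32.4% of all genes. Without shBry replicate 2, 8 fell and 1 rose, and without shBry replicate 1, 5 fell and 2 rose. The 3 with the smallest adjusted p were CDCA5, ESPL1 and DDX11. CDCA5 (sororin), which protects cohesin on replicated chromatids, fell by 1.24 on the log2 scale (edgeR adjusted p = 3.74e-08), with 71.4 ± 6.09 CPM in shBry against 169 ± 4.55 CPM in shNC. ESPL1 (separase), the protease that cleaves cohesin at anaphase, fell by 1.11 (edgeR adjusted p = 9.58e-08). DDX11, a helicase of sister chromatid cohesion, fell by 0.97 (edgeR adjusted p = 9.31e-07), but 17.7% of its stretches of 50 bases also occur in other transcripts, so that part of its counts is uncertain. The others, named after their values were seen, were CHTF18 and HDAC8, which fell by 1.17 and 0.69, and WAPL, the cohesin release factor, which rose by 0.74 (edgeR adjusted p = 0.000199).

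In the SMC5-SMC6 complex, which acts in DNA repair, the ATPases were not called. Of 10 genes listed with SMCHD1, 8 were tested (NSMCE3 and EID3 were too low), 2 fell and none rose, and the median was 0.08. The share called was 25%, below the 32.4% of all genes. SMC5 had a log2 fold change of -0.26 (SE 0.20, edgeR adjusted p = 0.296) and SMC6 of 0.03 (SE 0.22, edgeR adjusted p = 0.908). With the GC and length trend removed, SMC5 was at -0.45 and SMC6 at -0.14. NSMCE2, the SUMO ligase of the complex, had means of 8.28 ± 0.332 CPM in shBry and 15.7 ± 0.218 CPM in shNC. It fell by 0.93 on the log2 scale (SE 0.13, edgeR adjusted p = 3.13e-05). SLF1, which helps bring the complex to damaged DNA, was at -0.67 (edgeR adjusted p = 0.0202) and did not pass without shBry replicate 1 or without shNC replicate 3. NSMCE1 and NSMCE4A had 0.37 and 0.29 with edgeR adjusted p of 0.00911 and 0.0282, under the fold change limit.

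TOP2B, the paralog of TOP2A that is also used by cells that do not divide, had 33.6, 51.0 and 37.3 CPM in shBry and 76.4, 93.5 and 117 CPM in shNC. The groups did not overlap, and it fell by 1.23 on the log2 scale (SE 0.16, edgeR adjusted p = 1.8e-05). Its value was near the -1.09 of TOP2A, and the difference between the paralogs was not tested. Of 9 other topoisomerases and partners, 3 were called (33.3%, beside 32.4% of all genes), a share near the background, and all 3 fell. The others besides TOP2B were RMI2, which works with TOP3A to unlink recombined DNA (-1.12, edgeR adjusted p = 2.46e-05), and TOP3B, a topoisomerase that also acts on RNA (-0.84, edgeR adjusted p = 2.44e-05). Exons of another gene on the opposite strand cover 90.7% of the TOP3B exon bases, and 13.2% of its stretches of 50 bases also occur in its pseudogene TOP3BP1, so its counts are uncertain. None rose past the rule, with TOP1 at 0.46 (edgeR adjusted p = 0.00101) under the fold change limit, and the median of the list was -0.21.

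Kinases that act on condensin and other proteins of mitotic chromosomes mostly fell in shBry. Of 19 genes listed, all tested, 13 fell and 1 rose (73.7% called, beside 32.4% of all genes), with a median of -0.95. PLK1, the mitotic kinase, had 72.8, 62.4 and 66.1 CPM in shBry and 229, 214 and 210 CPM in shNC, and fell by 1.70 on the log2 scale (edgeR adjusted p = 1.64e-09). BIRC5 (survivin) and INCENP, subunits of the chromosomal passenger complex, fell by 1.64 and 1.50 (edgeR adjusted p = 2.85e-09 and 6.46e-09). The gene that rose, named after its value was seen, was CSNK2A1, a catalytic subunit of casein kinase 2, with a log2 fold change of 0.66 (edgeR adjusted p = 1.52e-05), which did not pass the fold change limit without shNC replicate 2 (0.57). Exons of genes on the opposite strand cover 12.5% of the PLK1 exon bases.

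**Figure D5:**
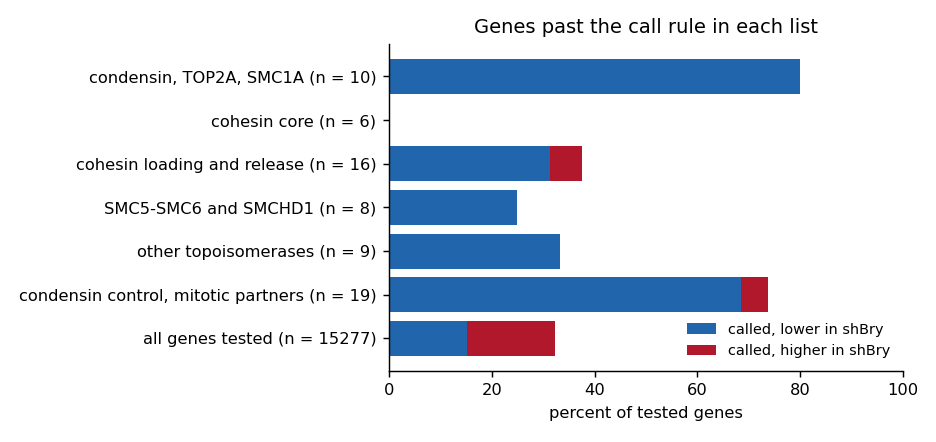
Percent of tested genes that passed the call rule, lower (blue) or higher (red) in shBry, for the 10 genes, the 5 lists and all genes tested, with the number tested in brackets. The condensin control and mitotic list reaches 73.7%, the cohesin core without SMC1A 0 of 6, and all genes 32.4%. The 10 genes, SMC1A among them, were chosen on this contrast.

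Likeness to the condensin genes was measured over the 6 libraries as the root mean square difference, in log2 units, between a gene's centred log2 CPM and the mean centred profile of the 8 condensin subunits. The comparison took in 9405 genes whose mean reached 10 CPM, and the 5 nearest were EXO1 (0.0455), CAV1 (0.0565), MATN2 (0.0591), GPSM2 (0.0613) and ALCAM (0.0630). They code for a DNA exonuclease, the coat protein of caveolae, a matrix protein, a spindle orientation protein and an adhesion molecule. SMC1A (0.113) and TOP2A (0.120) lay nearer to that mean profile than any single condensin subunit, of which NCAPG2 (0.138) was the nearest and SMC4 (0.549) and NCAPD2 (0.594) were the farthest. The mean profile averages over subunits that lay far apart, so no subunit shows it in full. Because centring was over all 6 libraries, this profile is mainly the difference between shBry and shNC. Genes near it therefore have similar fold changes, from -1.11 (CAV1) to -0.97 (ALCAM) on the log2 scale in the 5 nearest. The 10 genes were chosen with that contrast known, so nothing further is read from this likeness.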

How the data were processed

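RNA of 3 MDA-MB-231 shBry and 3 MDA-MB-231 shNC libraries, grouped by their labels, was sequenced. The authors deposited raw counts, whole numbers of reads per gene symbol, with no normalization. HISAT2 2.0.4, HTSeq and GRCh38 are named in the submitters' processing notes, while the annotation and strand setting are not given in the sources used here.

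Genes were filtered with filterByExpr (minimum count 10) and scaled with TMM, and both groups entered glmQLFit and glmQLFTest in edgeR 4.0.16 (R 4.3.3), a quasi-likelihood test that was checked on simulated data. Genes were called at a Benjamini-Hochberg adjusted p below 0.05 over all genes together with a change of over 1.5-fold. The fold limit follows the study's methods, which state a p limit without naming an adjustment. Library totals of 19319411 to 22985371 counts set the precision. The SE is the log2 fold change over the square root of F. Limma 3.58.1 (voom), DESeq2 1.42.0 and the other alternatives are compared in the closing part. Replicates of a group differed by more than sampling noise (chi-square per degree of freedom 4.94 to 16.7).

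The 10 genes and the gene lists were chosen with earlier results of these data known. Genes named were the 10, the core subunits of cohesin and SMC5-SMC6, TOP2B, in each list the 3 called genes of smallest adjusted p, the 5 of most similar profile, and brachyury. Positions, lengths and exon overlap came from GENCODE 29, matched by symbol, and promoters from RefSeq. The trend with GC content and length was removed by splines over 13587 genes with a value (88.9%). Other assays of the study were not analysed here.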

Additional observations from a re-analysis of the deposited data

How the results depend on the processing

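The call count of the 10 genes was within 1.5 times its value of 8 under every alternative run: library totals without TMM, DESeq2, limma-voom, unadjusted p, no filter, a filter of 10 counts in each library, other fold change limits, the replicate block, and each library left out (7 without shNC replicate 3, and 6 with a fold change limit of 2). Over all genes, 2297 were called with a fold change limit of 2 and 8139 with no limit, against 4945. With a limit of 2, 3 cohesin loading and release genes, 0 SMC5-SMC6 genes and 9 condensin control and mitotic genes were called, against 6, 2 and 14. With no limit, 1 cohesin core gene, 10 cohesin loading and release genes and 4 SMC5-SMC6 genes were called. Leaving out 1 library gave 0 to 1 cohesin core genes (1 without shBry replicate 2) and 1 to 2 SMC5-SMC6 genes (1 without shBry replicate 1 or shNC replicate 3).

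The log2 fold change of SMC2 ran from -0.37 to 0.00041 and that of SMC4 from -0.42 to 0.16 with 1 library left out, so their sign is not fixed by these libraries; SMC4 was above 0 without shBry replicate 1 (0.07), shBry replicate 3 (0.10) or shNC replicate 3 (0.16). The condensin II median was -1.15 after removal of the GC and length trend, against -1.26. The condensin II share in shNC was 29.997% with the longest coding transcript as length, against 23.8%. Causes were not tested. Same-numbered libraries deviated with correlations of 0.18, -0.08 and -0.03, so the numbers were not taken to pair them; not every library correlated best with its own number. The replicate block called 4914 genes and changed no list count by over 1.5 times. Groups of 3 limit every estimate of spread.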
